A study of Mus musculus with 8 samples.

Results

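The genes described here are 38 genes of the lysosome: 12 cathepsins, 2 other proteases, 6 glycosidases, 5 lipid hydrolases and lipid-handling proteins, 7 membrane proteins, 4 subunits of the proton pump and 2 regulators. They were chosen by name from known lysosomal function, with earlier results of these data known. Each was read by the single probe set of the expression array that carries its symbol alone. All 38 had such a probe set, among 19938 genes with one. A gene entered a test when it was at or above its array's median in at least 2 of the 8 arrays; 37 members did so and Ctsk, the cathepsin of bone-resorbing cells, did not.

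Lysosomes are acidic organelles in which macrophages digest engulfed bacteria, dead cells and worn-out organelles. Cathepsins and related proteases cut proteins, glycosidases strip sugars from glycoproteins and glycolipids, and lipid hydrolases and the NPC proteins release and export cholesterol and fatty acids. The vacuolar proton pump (V-ATPase) acidifies the lumen, and heavily glycosylated membrane proteins such as LAMP1 line it. The transcription factor TFEB and its relatives TFE3, MITF and TFEC bind an E-box at many lysosomal gene promoters. In phagocytes the same proteases also process antigen and the invariant chain for presentation.

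The cells were sorted mononuclear phagocytes of C57BL/6 mice that all carried 1 Cx3cr1 allele with a GFP insertion (Cx3cr1gfp/+), controls included, and each group was 1 array. Colonic lamina propria CX3CR1hi cells made up 4 groups: resident macrophages at steady state, monocyte-reconstituted resident macrophages at steady state, F4/80hi cells at steady state, and F4/80hi cells at day 4 of dextran sodium sulphate (DSS) colitis, a chemical injury of the colon lining. A pair of CX3CR1int groups, Ly6Clo and Ly6Chi, came from the colon at day 4 of colitis, and splenic Ly6Chi monocytes were taken at steady state and at day 4 of colitis. The resident, reconstituted and steady splenic samples were labelled female and the others male. The labels give no ages, do not say how many mice were pooled per array, and do not describe how reconstitution was done. Values are on the log2 scale of the deposited normalised table, in which 1 unit is a 2-fold difference. With 1 array per group, only the 3 populations (4 CX3CR1hi, 2 CX3CR1int and 2 splenic arrays) could be tested, and differences between single arrays have no replicate check. The p-values measure the spread between these arrays only, and CX3CR1int cells were sampled only in colitis.

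The arrays were checked before the genes were compared. All 10 macrophage markers were at or above the array median in every CX3CR1hi array, with a mean of 11.32 to 11.57 against 8.75 to 9.73 in CX3CR1int and 8.82 to 9.26 in splenic arrays. Monocyte markers averaged 11.74 to 11.78 in splenic arrays, 11.19 in Ly6Chi, 8.16 in Ly6Clo and 7.29 to 7.60 in CX3CR1hi. Ly6Clo carried the most dendritic cell signal, with a marker mean of 9.56 against 7.34 in Ly6Chi and 6.26 to 6.54 elsewhere. Epithelial markers were bright in all 6 colonic arrays: the mean of the 16 genes was 11.01 to 11.84 in CX3CR1hi, 9.77 to 9.94 in CX3CR1int and 4.93 to 6.00 in splenic arrays. Pancreatic acinar genes averaged 8.30 in the resident, 7.65 in the colitis F4/80hi and 8.00 in the Ly6Chi array, against 4.98 to 5.55 in the other 5. Plasma and B cell, stromal and red pulp macrophage markers were also higher on average in CX3CR1hi than in splenic arrays (6.82 to 7.56 against 5.55 to 6.20, 6.45 to 7.77 against 5.69 to 5.72, and 9.10 to 10.18 against 7.73 to 7.90), and neutrophil markers were at 4.87 to 5.58 against 5.96 to 6.08. The steady splenic array, labelled female, carried both Xist (10.04) and the Y-linked Eif2s3y (10.28), Uty (8.46) and Kdm5d (8.38), which goes against its label. In bulk sorted samples, fewer cells of a type and less RNA per cell cannot be told apart.

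Because TFEB-type E-boxes are the best-known shared feature of lysosomal promoters, the promoter windows of the members are shown first. RefSeq windows on GRCm38.p6, from 250 bases before to 50 after a gene's start, were given for 31 of the 38 members; Ctsb, Ctse, Ctsh, Asah1, Npc1, Atp6v0d2 and Atp6v1h had none. The palindromic core CACGTG was in the window of 11 of 31 members (35.5%), against 8.09% of 27025 genes with a window and 12.1% of the 8584 genes with a window that were also tested. TCACGTG, searched on both strands and containing that core, was in 9 members (29.0%), against 4.29% and 7.30% of the same gene sets. The longer palindromic consensus known as CLEAR, which contains both, was in 0 of 31 members. It was in 0.37% of the 27025 genes with a window and 0.839% of those also tested, so 0 of 31 is near those shares. A match describes letters in a window and not a bound site. The 4 upstream stretches below show the range among the members, from 4 cores in Lamp1 to none in Cd63. Each is written 5′ to 3′ on the gene's strand and ends at the base before the gene's start, with each core in capitals: Ctsd on chr7:142387828-142387947 (minus), Mcoln1 on chr8:3500399-3500518 (plus), Lamp1 on chr8:13159041-13159160 (plus) and Cd63 on chr10:128909225-128909344 (plus).
Ctsd: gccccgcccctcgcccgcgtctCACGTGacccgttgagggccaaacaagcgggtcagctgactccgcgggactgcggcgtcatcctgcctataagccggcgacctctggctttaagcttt
Mcoln1: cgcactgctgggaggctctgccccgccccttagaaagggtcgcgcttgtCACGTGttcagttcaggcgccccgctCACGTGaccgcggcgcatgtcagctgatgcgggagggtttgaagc
Lamp1: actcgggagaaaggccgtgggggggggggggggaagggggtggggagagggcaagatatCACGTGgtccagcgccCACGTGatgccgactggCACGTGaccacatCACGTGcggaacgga
Cd63: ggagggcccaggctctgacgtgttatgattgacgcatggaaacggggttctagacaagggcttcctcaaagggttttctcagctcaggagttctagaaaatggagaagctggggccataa

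Short stretches around 1 core show the remaining members with TCACGTG on either strand, for comparison of the flanking letters. Their positions are Lgmn chr12:102439124-102439153 (minus), Gaa chr11:119267811-119267840 (plus), Glb1 chr9:114401018-114401047 (plus), Ctsa chr2:164833749-164833778 (plus), Atp6v1a chr16:44139373-44139402 (minus) and Atp6v0d1 chr8:105566050-105566079 (minus). The cores began 49 bases before the gene's start in Lgmn, 140 in Gaa, 48 in Glb1, 12 in Ctsa, 131 in Atp6v1a and 3 in Atp6v0d1.
Lgmn: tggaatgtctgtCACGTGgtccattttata
Gaa: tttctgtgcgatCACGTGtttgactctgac
Glb1: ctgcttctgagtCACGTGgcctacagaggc
Ctsa: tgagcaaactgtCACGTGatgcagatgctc
Atp6v1a: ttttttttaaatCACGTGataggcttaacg
Atp6v0d1: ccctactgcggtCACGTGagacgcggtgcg

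CX3CR1hi colonic cells were first set against splenic Ly6Chi monocytes, which asks how the lysosomal genes of gut-resident macrophages differ from those of the circulating-type monocyte. In CX3CR1hi cells 11 of 37 members were higher by limma at an adjusted p under 0.05, 29.7% of the members against 22.2% of the 10673 genes tested, so the share was not far from that of all genes. They were Cd63, Ctsl, Ctsf, Lgmn, Atp6v0d2, Ctsd, Gaa, Tpp1, Glb1, Mcoln1 and Ctsz. Only Tfeb was lower, 1 of 37 against 29.0% of all genes. The median log2 difference was 0.06 over the members and -0.12 over all genes tested, and 7 of the 11 were called at 2-fold or more. All CX3CR1hi arrays lay above both splenic arrays for 16 of 37 members, against 31.5% of all genes, and below both for 9, against 42.8%. By role, 4 of 11 cathepsins, both other proteases, 2 of 6 glycosidases, 2 of 7 membrane proteins, 1 of 4 proton pump subunits and 0 of 5 lipid genes were called higher. All 16 epithelial markers were also called higher here, with log2 differences of 4.33 to 7.05, as were 6 of 10 macrophage markers, and their part in these differences was not tested. Ctsf and Atp6v0d2 were below the array median in every CX3CR1int and splenic array, so they entered the test only through the CX3CR1hi arrays. Their calls here and against CX3CR1int are not support, and without them 9 of 35 (25.7%) were higher. Both are also in the 7 at 2-fold and in the 16 above both splenic arrays. Without the steady or the colitis splenic array, Ctsd was at 1.14 and 1.28 and Ctsz at 0.40 and 0.37. Glb1 was at 0.52 and 0.44, and Mcoln1 at 0.44 and 0.45. Their calls did not hold in those fits, which have 1 splenic array and called fewer of all genes as well.

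CX3CR1int cells of the inflamed colon were then set against CX3CR1hi cells, the macrophages of the same tissue. None of the 37 members was higher and 20 (54.1%) were lower (limma, adjusted p under 0.05), against 13.3% and 16.6% of all genes tested. The difference was negative for 36 of 37 members, with a median of -0.56 against 0.01 over all genes, and 10 members were called at 2-fold or more. Without Ctsf and Atp6v0d2, 18 of 35 (51.4%) were lower, with a median of -0.47. Both are also in the 10 at 2-fold and in the counts of 26, 12 and 32 members below. The lower calls took in 5 of 11 cathepsins, both other proteases, 5 of 6 glycosidases, 3 of 5 lipid genes, 3 of 7 membrane proteins, 1 of 4 proton pump subunits and Grn. All 4 CX3CR1hi arrays lay above both CX3CR1int arrays for 26 of 37 members, against 25.3% of all genes, and the reverse held for 0 members, against 23.6%. In the same comparison 8 of 10 macrophage markers and 8 of 16 epithelial markers were called lower, with medians of -2.20 and -1.35, and their part in it was not tested. Condition is unbalanced between the populations, since 3 of the 4 CX3CR1hi arrays are steady state. With condition as a block, 12 members were lower, against 5.31% of all genes in that fit, and Asah1, Ctsc, Ctsd, Ctsl, Glb1, Gusb, Man2b1 and Mcoln1 lost the call. The differences themselves did not shrink in that fit apart from Asah1 (-0.35): Ctsc was at -0.82, Ctsd at -1.60, Ctsl at -1.79 and Glb1 at -0.93, and the median over the 37 members was -0.64. The result also moved with the CX3CR1int array kept. Without Ly6Clo the median over the members was -0.38, against -0.01 over all genes, and 7 members were positive. Without Ly6Chi it was -0.76, against 0.01, and 2 were positive. Among the colitis arrays alone, the F4/80hi array lay above both CX3CR1int arrays for 32 of 37 members, against 39.3% of all genes, and below both for 0, against 33.1%.

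CX3CR1int cells of the inflamed colon were also set against splenic monocytes, sharing arrays with both comparisons above. The CX3CR1int pair is mixed: the Ly6Clo array had a dendritic cell marker mean of 9.56 and a monocyte marker mean of 8.16. Only Cd63 was higher, 1 of 37 against 10.2% of all genes, and 8 (21.6%) were lower, against 14.2%: Ctsb, Hexa, Man2b1, Asah1, Lipa, Npc1, Scarb2 and Tfeb (limma, adjusted p under 0.05). The median difference was -0.42 over the members and -0.08 over all genes. Both splenic arrays lay above both CX3CR1int arrays for 21 of 37 members, against 40.4% of all genes, and below both for 4, against 27.9%. Among the lipid genes 3 of 5 were called lower, and 0 of the 4 proton pump subunits were called. All 16 epithelial markers were higher in CX3CR1int cells (log2 differences of 2.01 to 6.12). The lower calls depended on the arrays, among all genes as well as the members. The median over the members was -0.14 without Ly6Clo, against -0.11 over all genes. It was -0.55 without Ly6Chi and without the 3 arrays high in acinar genes, against -0.06 over all genes each time. Without either the steady or the colitis splenic array it was -0.38, against -0.08. Ctsb and Hexa lost the call with sex as a block, and Ctsb, Hexa and Man2b1 with condition as a block. The sex block follows the labels, although the steady splenic array goes against its own.

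**Figure D1:**
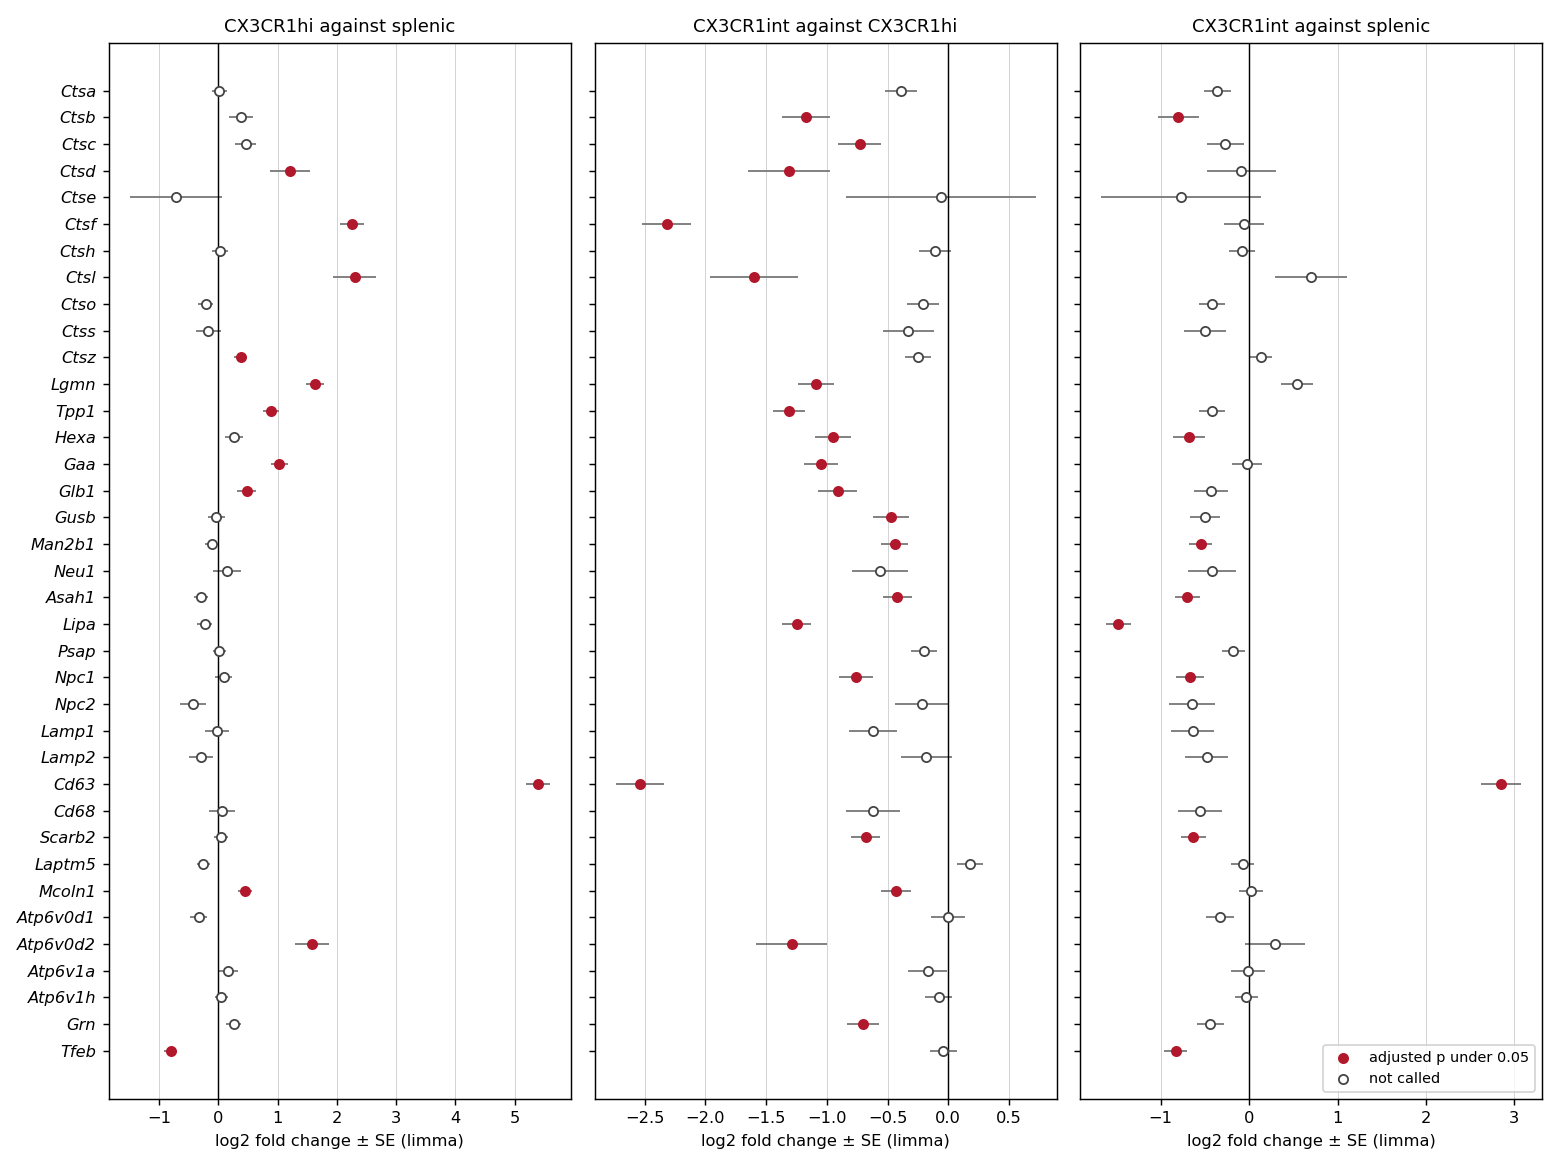
Log2 fold changes (x axis) of the 37 tested members (rows, by role) between the 3 populations, with the standard error of the limma fit over 8 arrays; filled red points passed an adjusted p under 0.05. In the CX3CR1int against CX3CR1hi panel, 36 of 37 points lie left of 0 and 20 are filled, while in CX3CR1hi against splenic 11 filled points lie right of 0.

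**Figure D2:**
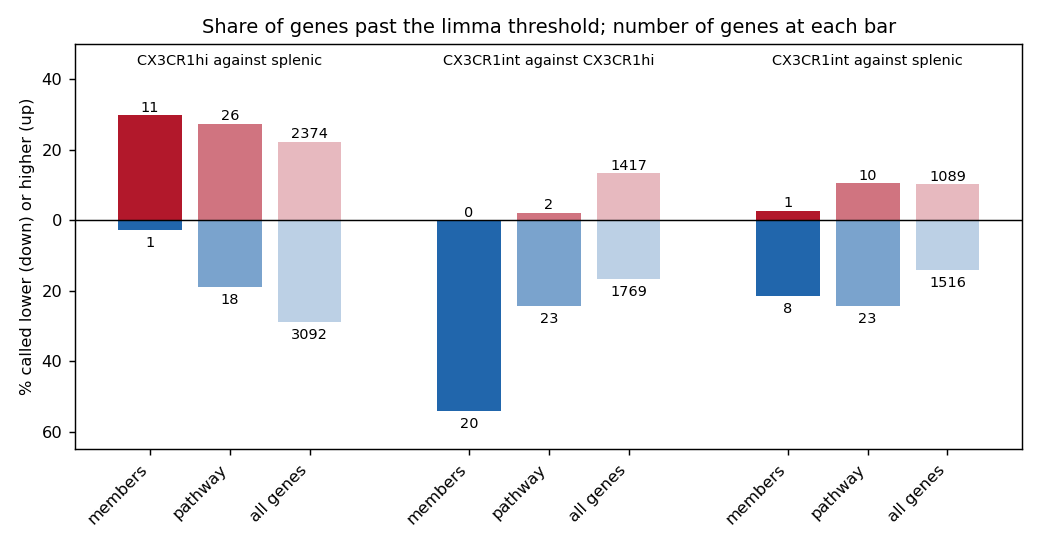
Bars give the percentage of genes called higher (up) or lower (down) by limma in each population comparison, for the 37 members, 95 other genes of the lysosomal pathway and all 10673 genes tested; numbers at the bars are genes. The members' lower bar in CX3CR1int against CX3CR1hi (20 genes) is longer than that of all genes, 16.6%, and no member was called higher there.

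In the paragraphs that follow, values are log2 levels of 1 array each. They are given in the order resident, reconstituted, steady F4/80hi and colitis F4/80hi for CX3CR1hi, then Ly6Clo and Ly6Chi for CX3CR1int, then steady and colitis for the spleen. Each difference carries the standard error (SE) and the adjusted p of the limma fit over all 8 arrays. Where a fit without 1 array is named, it leaves out an array of the populations compared.

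Among the cathepsins, cathepsin L (Ctsl, probe set 10410124), a cysteine endoprotease of the lysosome, was at 10.68, 10.69, 10.62 and 10.77 in CX3CR1hi, 8.35 and 9.83 in CX3CR1int, and 8.15 and 8.62 in splenic arrays. The 4 CX3CR1hi arrays were tightly grouped above all others, while the CX3CR1int pair was split, with Ly6Clo inside the splenic range. The difference was 2.30 (SE 0.36, adjusted p = 0.00135) for CX3CR1hi over splenic and -1.60 (SE 0.36, adjusted p = 0.0145) for CX3CR1int against CX3CR1hi. CX3CR1int against splenic was not called at 0.70 (SE 0.41, adjusted p = 0.242). Without the Ly6Clo array that difference was 1.44 with an adjusted p of 0.0044.

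Cathepsin F (Ctsf, probe set 10460468), another cysteine protease of the papain family, was at 7.70, 7.84, 7.14 and 7.46 in CX3CR1hi, 5.10 and 5.34 in CX3CR1int, and 5.23 and 5.32 in splenic arrays. Its CX3CR1int and splenic arrays overlapped, and all lay below the array medians of 5.77 to 5.87. Because the gene entered the test only through the CX3CR1hi arrays, these levels are a description and the size of the gap to levels below the median is not resolved.

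Cathepsin D (Ctsd, probe set 10569319), the main aspartic protease of the lysosome, was at 11.30, 11.50, 11.31 and 11.94 in CX3CR1hi, 9.57 and 10.85 in CX3CR1int, and 10.23 and 10.37 in splenic arrays. Colitis F4/80hi was the highest array and Ly6Clo the lowest, and the CX3CR1int pair enclosed the splenic pair. The differences were 1.21 for CX3CR1hi over splenic (SE 0.34, adjusted p = 0.0192) and -1.31 for CX3CR1int against CX3CR1hi (SE 0.34, adjusted p = 0.0249). Without the Ly6Clo array the second was -0.67 with an adjusted p of 0.0886, and without the reconstituted array its adjusted p was 0.054. Its promoter stretch above holds 1 core, and the whole window holds 2.

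Cathepsin B (Ctsb, probe set 10415844), a cysteine protease with both endo- and exopeptidase activity, was at 12.53, 12.40, 12.58 and 12.70 in CX3CR1hi, 11.01 and 11.75 in CX3CR1int, and 12.15 and 12.20 in splenic arrays. The groups did not overlap, with CX3CR1int lowest. CX3CR1int differed from CX3CR1hi by -1.17 (SE 0.20, adjusted p = 0.00592) and from splenic by -0.80 (SE 0.23, adjusted p = 0.0435). The second call was lost without the Ly6Clo array (-0.42, adjusted p = 0.111), without the steady splenic array (adjusted p = 0.167) and without the colitis splenic array (adjusted p = 0.171). It was also lost with a sex block (adjusted p = 0.0655), a condition block (0.0752), no brightness filter (0.0592) or the arrays of the contrast alone (0.153). CX3CR1hi over splenic was 0.38 and not called (SE 0.20, adjusted p = 0.154).

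Cathepsin C (Ctsc) is the dipeptidyl peptidase that activates granule serine proteases. Its values were 12.82, 12.77, 13.03 and 12.98 in CX3CR1hi, 11.87 and 12.46 in CX3CR1int, and 12.36 and 12.51 in splenic arrays. CX3CR1hi lay above the rest, and CX3CR1int differed from it by -0.73 (SE 0.18, adjusted p = 0.0197). That call was lost without the Ly6Clo array, at -0.44 with an adjusted p of 0.0751. Cathepsin Z (Ctsz), a carboxypeptidase, was called only for CX3CR1hi over splenic, at 0.38 (SE 0.11, adjusted p = 0.0219), with CX3CR1hi arrays at 11.87 to 12.10 and splenic arrays at 11.61 to 11.64.

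Cathepsin S (Ctss), which trims the invariant chain in antigen-presenting cells, was at 12.06, 11.88, 12.23 and 12.13 in CX3CR1hi, 11.37 and 12.13 in CX3CR1int, and 12.28 and 12.21 in splenic arrays. It was not called in any comparison, with differences of -0.17, -0.33 and -0.50, and the Ly6Clo array stood lowest. Without Ly6Chi it was called at -0.71 for CX3CR1int against CX3CR1hi (adjusted p = 0.0151) and at -0.88 against splenic (adjusted p = 0.00786). Ctsa (protective protein of the sialidase and galactosidase complex), Ctsh and Ctso were not called either; their differences ran from -0.42 to 0.03 over the 3 comparisons. Cathepsin K, outside the test, was at 4.50 to 4.92 in all 8 arrays.

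Cathepsin E (Ctse, probe set 10349648), an endosomal aspartic protease, was the most variable member inside populations. It was at 10.02, 10.06, 9.05 and 8.73 in CX3CR1hi, 8.32 and 10.49 in CX3CR1int, and 9.08 and 11.28 in splenic arrays. All 3 populations overlapped, and none of the comparisons was called, with a standard error of 0.78 for CX3CR1hi against splenic.

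Both other proteases were higher in CX3CR1hi than in splenic cells and lower in CX3CR1int than in CX3CR1hi. Legumain (Lgmn, probe set 10402268), an asparaginyl endopeptidase that activates cathepsins, was at 12.76, 12.71, 12.91 and 12.89 in CX3CR1hi, 11.48 and 11.97 in CX3CR1int, and 11.19 and 11.18 in splenic arrays. The 3 populations did not overlap. CX3CR1hi exceeded splenic by 1.63 (SE 0.15, adjusted p = 0.00013), and CX3CR1int differed from CX3CR1hi by -1.09 (SE 0.15, adjusted p = 0.00264). CX3CR1int over splenic, 0.54, had an adjusted p of 0.0593 (SE 0.18) and was called without Ly6Clo (0.79, adjusted p = 0.0123).

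Tripeptidyl peptidase 1 (Tpp1, probe set 10566529), which removes tripeptides and is lost in a childhood neuronal storage disease, was at 10.59, 10.62, 10.59 and 10.78 in CX3CR1hi, 9.18 and 9.49 in CX3CR1int, and 9.84 and 9.68 in splenic arrays. Again no populations overlapped, but here CX3CR1int was lowest. The differences were 0.89 for CX3CR1hi over splenic (SE 0.13, adjusted p = 0.00115) and -1.31 for CX3CR1int against CX3CR1hi (SE 0.13, adjusted p = 0.00066). CX3CR1int against splenic was -0.42 (SE 0.15, adjusted p = 0.083).

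Of the glycosidases, acid alpha-glucosidase (Gaa, probe set 10383088), which degrades lysosomal glycogen, was at 8.87, 9.11, 8.77 and 9.13 in CX3CR1hi, 7.88 and 7.96 in CX3CR1int, and 7.83 and 8.05 in splenic arrays. CX3CR1hi stood alone above the other populations, which overlapped. The differences were 1.03 for CX3CR1hi over splenic (SE 0.14, adjusted p = 0.000866) and -1.05 for CX3CR1int against CX3CR1hi (SE 0.14, adjusted p = 0.00241).

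The alpha subunit of beta-hexosaminidase (Hexa), which degrades GM2 ganglioside, was at 11.53, 11.48, 11.49 and 11.76 in CX3CR1hi, 10.39 and 10.84 in CX3CR1int, and 11.32 and 11.27 in splenic arrays. CX3CR1int was lowest without overlap, at -0.95 against CX3CR1hi (SE 0.15, adjusted p = 0.00469) and -0.68 against splenic (SE 0.18, adjusted p = 0.0303). The second call was lost without Ly6Clo (-0.46, adjusted p = 0.0924) and without either splenic array (adjusted p = 0.159 without steady, 0.12 without colitis), as well as with a sex block (0.0572), a condition block (0.0528) or the arrays of the contrast alone (0.111).

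Beta-galactosidase (Glb1) was at 9.21, 9.06, 8.70 and 9.07 in CX3CR1hi, 8.23 and 7.97 in CX3CR1int, and 8.57 and 8.49 in splenic arrays. The 3 populations did not overlap, and CX3CR1int differed from CX3CR1hi by -0.91 (SE 0.16, adjusted p = 0.00689). Its difference of 0.48 for CX3CR1hi over splenic (SE 0.16, adjusted p = 0.0399) lost the call in 5 of the 6 fits that left out an array, all but the one without steady F4/80hi, with an adjusted p of up to 0.183.

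Alpha-mannosidase (Man2b1) and beta-glucuronidase (Gusb) were lower in CX3CR1int than in CX3CR1hi by smaller amounts, with differences of -0.44 (SE 0.11, adjusted p = 0.024) and -0.47 (SE 0.15, adjusted p = 0.0494). Man2b1 was also lower than in splenic arrays at -0.55 (SE 0.13, adjusted p = 0.0214), and its call against CX3CR1hi was lost without Ly6Chi (adjusted p = 0.0794) or steady F4/80hi (adjusted p = 0.0533). The call against splenic was lost without the steady (adjusted p = 0.123) or colitis splenic array (0.118), with the condition block (0.0513), with the arrays of the contrast alone (0.0912) and without the 3 acinar-high arrays (0.0556). The Gusb call was lost in 5 of the 6 fits that left out an array, reaching an adjusted p of 0.204 without Ly6Clo. Sialidase 1 (Neu1), which removes sialic acid, was at 8.20 to 8.36 in CX3CR1hi, 7.24 in Ly6Clo, 8.18 in Ly6Chi and 8.09 to 8.17 in the spleen, and was not called in any comparison. Without Ly6Chi its difference for CX3CR1int went from -0.56 to -1.03 against CX3CR1hi (adjusted p = 0.00157) and from -0.42 to -0.89 against splenic (adjusted p = 0.00315).

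Of the 5 lipid genes none was called between CX3CR1hi cells and splenic monocytes, with differences of -0.43 to 0.09. Asah1, Lipa and Npc2 nonetheless had every CX3CR1hi array below both splenic arrays. Lysosomal acid lipase (Lipa, probe set 10467139), which hydrolyses cholesteryl esters and triglycerides, was at 11.12, 11.04, 11.00 and 11.24 in CX3CR1hi, 9.73 and 9.97 in CX3CR1int, and 11.30 and 11.36 in splenic arrays. Both CX3CR1int arrays were more than 1 unit below every other array. The differences were -1.25 against CX3CR1hi (SE 0.12, adjusted p = 0.000586) and -1.48 against splenic (SE 0.14, adjusted p = 0.000728), and both calls held in every fit that left out an array.

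NPC1, the membrane cholesterol exporter, was at 10.38, 10.14, 10.36 and 10.58 in CX3CR1hi, 9.60 and 9.61 in CX3CR1int, and 10.34 and 10.22 in splenic arrays (Npc1). The CX3CR1int pair lay below the other populations, which overlapped, at -0.76 against CX3CR1hi (SE 0.14, adjusted p = 0.00735) and -0.67 against splenic (SE 0.16, adjusted p = 0.0221). The call against splenic was lost without Ly6Clo (adjusted p = 0.0535), steady splenic (adjusted p = 0.146) or colitis splenic (adjusted p = 0.0851).

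Acid ceramidase (Asah1) was at 12.12, 11.88, 12.12 and 11.94 in CX3CR1hi, 11.53 and 11.67 in CX3CR1int, and 12.33 and 12.27 in splenic arrays, so that the populations did not overlap and the spleen was highest. Its differences were -0.42 for CX3CR1int against CX3CR1hi (SE 0.12, adjusted p = 0.037) and -0.70 against splenic (SE 0.14, adjusted p = 0.0114). The first was lost without the resident (adjusted p = 0.0792), steady F4/80hi (0.078), colitis F4/80hi (0.0501) or Ly6Clo array (0.123), and the second without the steady (0.092) or colitis splenic array (0.0635). NPC2, the soluble cholesterol carrier, and prosaposin (Psap), the precursor of the saposin activators, were not called in any comparison; Npc2 was at 10.08 in Ly6Clo and 10.60 to 11.23 elsewhere. Without Ly6Chi, Npc2 in CX3CR1int went from -0.22 to -0.64 against CX3CR1hi (adjusted p = 0.0209) and from -0.65 to -1.08 against splenic (adjusted p = 0.00344). For CX3CR1hi against splenic, Npc2 was called lower with the arrays of that contrast alone (-0.43, adjusted p = 0.0188) and without the 3 acinar-high arrays (-0.52, adjusted p = 0.0166), and Asah1 with a trended and robust prior (-0.29, adjusted p = 0.0455).

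Among the membrane proteins, the tetraspanin Cd63 (probe set 10367436), found in late endosomes, lysosomes and exosomes, had the widest range of all members, 5.81 over the 8 arrays. It was at 11.94, 11.72, 11.59 and 11.84 in CX3CR1hi, 8.98 and 9.49 in CX3CR1int, and 6.63 and 6.13 in splenic arrays. The 3 populations were far apart, and the spread inside each was 0.51 at most. CX3CR1hi exceeded splenic by 5.39 (SE 0.20, adjusted p = 6.59e-06), a 42-fold difference, and CX3CR1int exceeded splenic by 2.85 (SE 0.23, adjusted p = 0.000392). CX3CR1int against CX3CR1hi was -2.54 (SE 0.20, adjusted p = 0.000256). All 3 calls held in every such fit. The epithelial marker mean had the same order of populations, at 11.01 to 11.84, 9.77 to 9.94 and 4.93 to 6.00, and its part in the Cd63 difference was not tested. The Cd63 stretch shown above holds no E-box core.

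LAMP1 and LAMP2, the abundant glycoproteins of the lysosomal membrane, were not called between the populations in the main fit. Lamp1 was at 12.19, 12.35, 12.19 and 12.33 in CX3CR1hi, 11.25 and 12.05 in CX3CR1int, and 12.29 and 12.29 in splenic arrays. Both CX3CR1int arrays lay below every other array, with Ly6Clo furthest. No comparison was called: CX3CR1hi over splenic was -0.02 (SE 0.20, adjusted p = 0.933). CX3CR1int against CX3CR1hi was -0.62 (SE 0.20, adjusted p = 0.0556). The second was called by limma with the 75th percentile filter (adjusted p = 0.0483), centred arrays (0.0423) or a trended and robust prior (0.0445). With Ly6Chi left out, it was -1.01. Lamp2 was at 11.41 in Ly6Clo and 11.81 to 12.33 in the other 7 arrays. CD68 (Cd68), the macrophage-associated LAMP relative, was at 12.32, 12.21, 12.41 and 12.60 in CX3CR1hi, 11.37 and 12.15 in CX3CR1int, and 12.30 and 12.34 in splenic arrays, and was not called. For CX3CR1int against CX3CR1hi it went from -0.62 to -1.01 without Ly6Chi (adjusted p = 0.00497), and it was called with centred arrays (0.0465) and without the 3 acinar-high arrays (0.0118). Without Ly6Chi, Lamp2 was also called there (-0.57, adjusted p = 0.0303), and against splenic Lamp1 (-1.04), Lamp2 (-0.87) and Cd68 (-0.95) were all called, with adjusted p of 0.00187, 0.008 and 0.0072.

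LIMP-2 (Scarb2), the receptor that carries glucocerebrosidase to lysosomes, was at 10.22, 10.27, 10.45 and 10.50 in CX3CR1hi, 9.61 and 9.75 in CX3CR1int, and 10.30 and 10.32 in splenic arrays. CX3CR1int was lowest in both of its comparisons, at -0.68 against CX3CR1hi (SE 0.12, adjusted p = 0.00739) and -0.63 against splenic (SE 0.14, adjusted p = 0.0184). The call against splenic was lost without Ly6Clo (adjusted p = 0.0556), steady splenic (0.11) or colitis splenic (0.104). Mucolipin 1 (Mcoln1), the calcium release channel upstream of TFEB activation, was at 10.34, 10.59, 10.27 and 10.49 in CX3CR1hi, 10.04 and 9.96 in CX3CR1int, and 9.97 and 9.98 in splenic arrays. CX3CR1hi lay above all others, by 0.45 over splenic (SE 0.12, adjusted p = 0.0182) and by a difference of -0.43 for CX3CR1int against it (SE 0.12, adjusted p = 0.0371), the latter lost in 5 of the 6 fits that left out an array. Laptm5, a lysosomal membrane protein of haematopoietic cells, was at 12.49 to 12.87 in all 8 arrays, and was the only member with a positive difference for CX3CR1int against CX3CR1hi (0.18, not called).

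Of the proton pump subunits, only the alternative d subunit Atp6v0d2 (probe set 10511779), known from osteoclasts and macrophages, was called. It was at 6.25, 5.96, 5.83 and 6.98 in CX3CR1hi, 4.91 and 5.02 in CX3CR1int, and 4.65 and 4.70 in splenic arrays. Colitis F4/80hi was highest, and the CX3CR1int and splenic arrays were below the array medians. Like Ctsf, it entered the test only through the CX3CR1hi arrays, so its levels are given as a description.

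The ubiquitous d subunit Atp6v0d1 was at 10.63, 10.62, 10.42 and 10.52 in CX3CR1hi, 10.35 and 10.74 in CX3CR1int, and 10.83 and 10.92 in splenic arrays, and was not called in any comparison (-0.33 for CX3CR1hi over splenic, SE 0.14, adjusted p = 0.0842). The catalytic A subunit Atp6v1a and the regulatory H subunit Atp6v1h were also not called, with differences of -0.17 to 0.17. Atp6v1a and Atp6v0d1 are 2 of the 9 members with TCACGTG in the promoter window.

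Of the regulators, Tfeb (probe set 10445729), the transcription factor of the lysosomal programme, was at 8.13, 8.34, 8.18 and 8.33 in CX3CR1hi, 8.17 and 8.24 in CX3CR1int, and 9.07 and 9.01 in splenic arrays. Both splenic arrays were above every colonic one, and the colonic populations overlapped. The differences were -0.80 for CX3CR1hi against splenic (SE 0.11, adjusted p = 0.000904) and -0.83 for CX3CR1int against splenic (SE 0.13, adjusted p = 0.00455), and both calls held in every fit that left out an array. Progranulin (Grn), a secreted and lysosomal glycoprotein needed for hydrolase function, was at 12.33, 12.27, 12.46 and 12.55 in CX3CR1hi, 11.59 and 11.81 in CX3CR1int, and 12.21 and 12.07 in splenic arrays. CX3CR1int was lowest, at -0.70 against CX3CR1hi (SE 0.13, adjusted p = 0.00773).

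**Figure D3:**
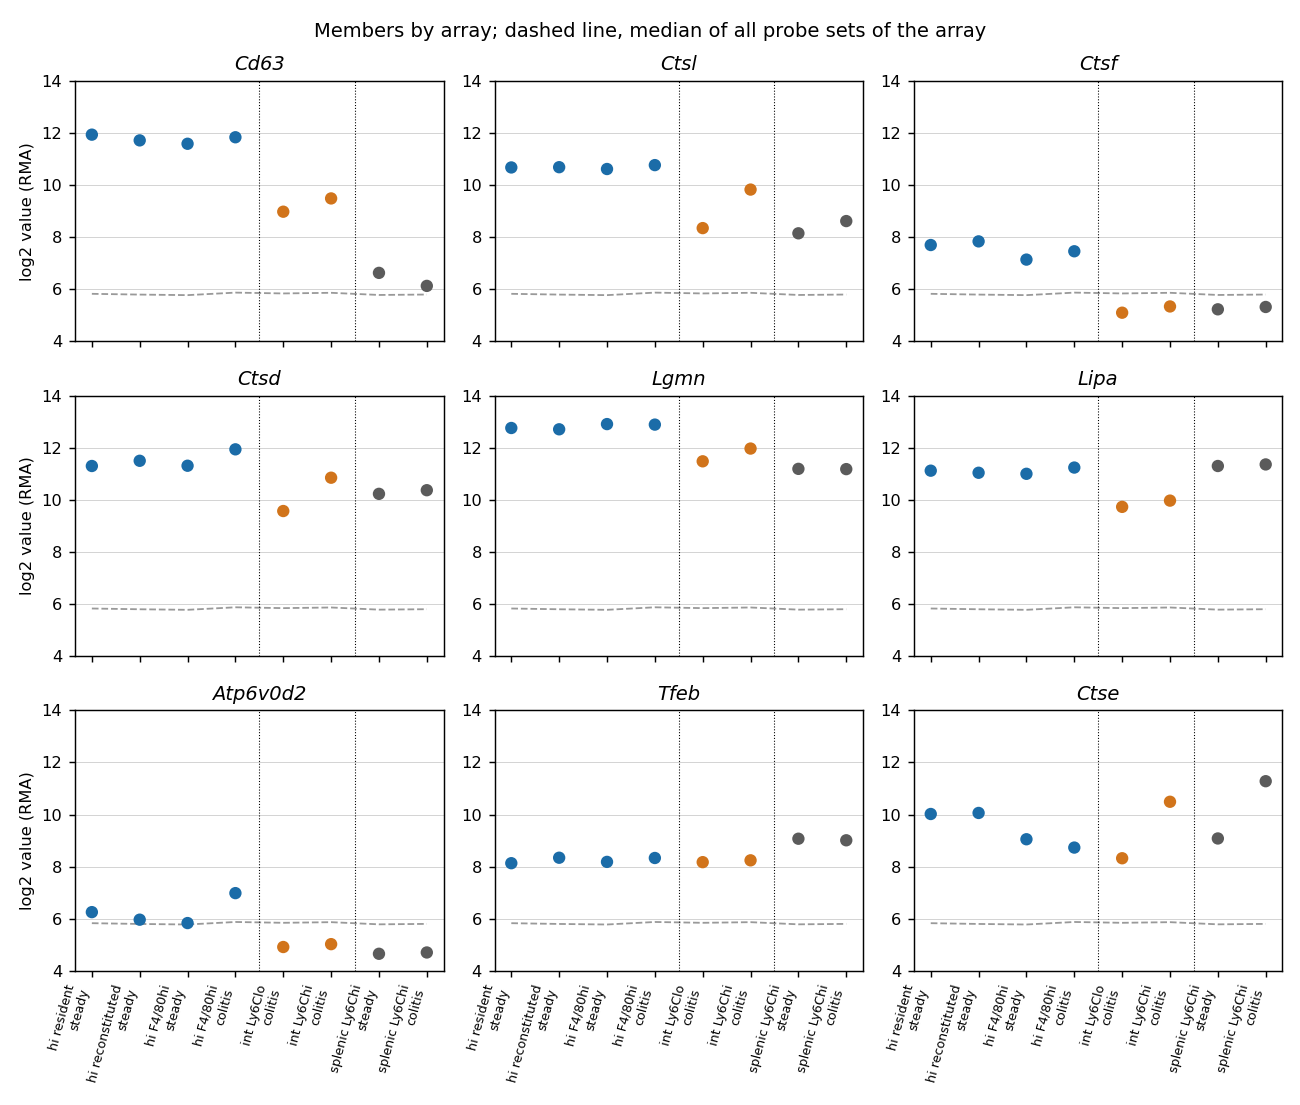
Log2 value (y axis) of 9 members in each of the 8 arrays (x axis; blue, CX3CR1hi; orange, CX3CR1int; grey, splenic); the dashed line is the median of all probe sets of each array. Cd63 steps from 11.59 to 11.94 down to 6.13 to 6.63, Lipa is low only in the CX3CR1int pair at 9.73 and 9.97, and Ctse varies within every population.

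The roles were next compared over the 8 arrays, as the median over their members of each gene's deviation from its own mean. The cathepsins stood at 0.19 to 0.23 in all 4 CX3CR1hi arrays, -0.73 in Ly6Clo, -0.13 in Ly6Chi, and -0.21 and 0.00 in the splenic arrays. Glycosidases stood at 0.17 to 0.36 in CX3CR1hi, -0.54 and -0.44 in CX3CR1int, and 0.03 and 0.04 in the spleen. The lipid genes were highest in the spleen, at 0.31 and 0.29, against -0.01 to 0.16 in CX3CR1hi and -0.55 and -0.31 in CX3CR1int. Membrane proteins were at 0.07 to 0.28 in CX3CR1hi, -0.60 in Ly6Clo, -0.07 in Ly6Chi, and 0.12 and 0.13 in the spleen. So every one of these 4 roles had its lowest median in Ly6Clo. Colitis F4/80hi had the highest median for glycosidases (0.36) and membrane proteins (0.28), and was level with the reconstituted array for cathepsins (0.23). Only the lipid genes were highest elsewhere, in the steady splenic array (0.31). Ly6Clo was the lowest of the 8 arrays for 23 of 37 members, against 18.1% of all genes tested. Colitis F4/80hi was the highest for 16 of 37, against 9.74% of all genes, and neither CX3CR1int array was the highest for any member. Ctsf is among the 23 and in the cathepsin medians, and Atp6v0d2 is among the 16. Both entered only through the CX3CR1hi arrays, so their places in these counts are not support.

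**Figure D4:**
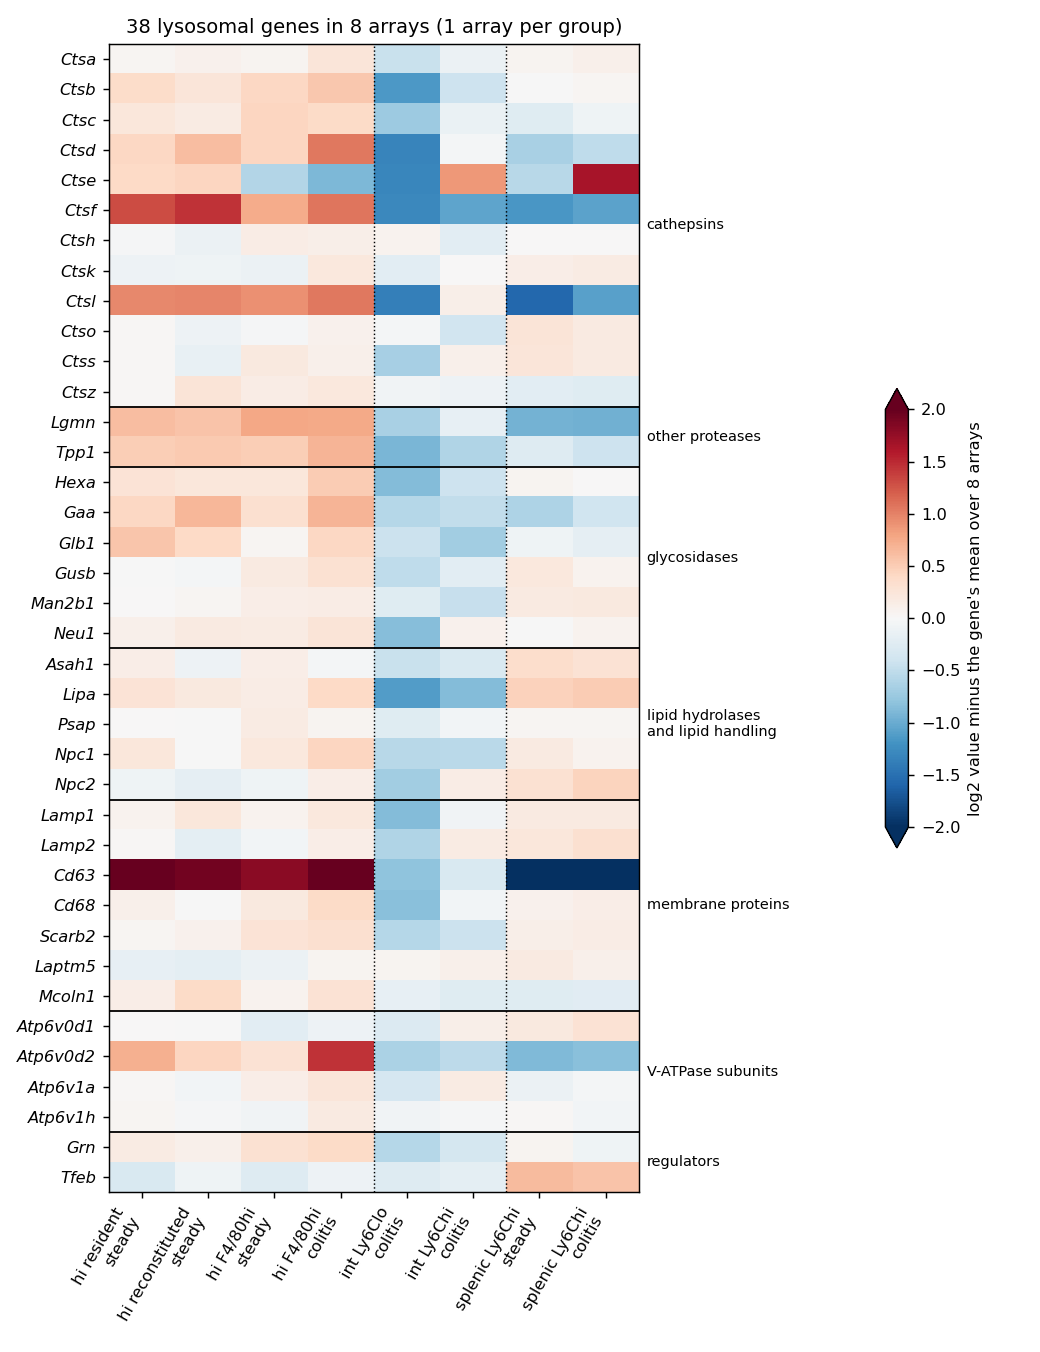
Each cell is a gene's log2 value minus its mean over the 8 arrays (columns), for all 38 members (rows, grouped by role); red is above and blue below the mean, and the colours saturate at 2 units. The Ly6Clo column is blue for most members and lowest for 23 of the 37 tested, and Cd63 runs past the scale in both directions. Ctsf, tested only through its CX3CR1hi arrays, is among the 23.

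The E-box was set against these differences as a description. Among members with a promoter window that were tested, 5 of 9 with TCACGTG and 5 of 21 without it were higher in CX3CR1hi than in splenic cells, with median differences of 0.45 and 0.05. Over all genes tested that had a window, 21.1% of those with the motif and 21.4% of those without it were higher. In CX3CR1int against CX3CR1hi, 5 of 9 members with it and 11 of 21 without it were lower, with medians of -0.62 and -0.56, and among all genes 15.8% and 16.2% were lower. Ctsf, which lacks TCACGTG, is in the 5 and the 11 of the 21 without it. It entered the test only through the CX3CR1hi arrays, so its calls are not support. Of the 9 members with the motif, Lgmn, Ctsd, Gaa, Glb1 and Mcoln1 were called in both comparisons, and Lamp1, with 4 cores, was called in neither.

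Other genes of the pathway were counted in the same fits: 117 were named, 105 had a probe set of their own and 95 were tested. CX3CR1hi cells had 26 of them higher and 18 lower than splenic cells, 27.4% and 18.9% against 22.2% and 29.0% of all genes, with a median of -0.11 against -0.12. CX3CR1int cells had 2 higher and 23 lower than CX3CR1hi, 2.11% and 24.2% against 13.3% and 16.6%, with a median of -0.25 against 0.01. They had 10 higher and 23 lower than splenic cells, 10.5% and 24.2% against 10.2% and 14.2%, with a median of -0.29 against -0.08. The counts by list below are read against these shares of all genes. Hydrolases beyond the members split for CX3CR1hi over splenic, with 6 of 27 higher and 7 lower, and 10 were lower and 1 higher in CX3CR1int than in CX3CR1hi. Tartrate-resistant acid phosphatase (Acp5) was at 11.47, 11.77, 11.38 and 11.29 in CX3CR1hi, 9.12 and 9.06 in CX3CR1int, and 8.62 and 8.61 in splenic arrays. Its difference was 2.86 for CX3CR1hi over splenic (SE 0.15, adjusted p = 1.15e-05). In the opposite direction, heparanase (Hpse), which cleaves heparan sulphate, was at -2.78 (SE 0.39, adjusted p = 0.000851). Alpha-galactosidase (Gla) rose by 1.77 (SE 0.24, adjusted p = 0.000712), and galactosylceramidase (Galc) was at -1.97 in CX3CR1int against CX3CR1hi (SE 0.41, adjusted p = 0.0114).

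Membrane and transport genes outside the members had 8 of 23 higher and 5 lower in CX3CR1hi than in splenic cells, and 6 lower and 1 higher in CX3CR1int than in CX3CR1hi. Gpnmb, a glycoprotein of macrophage lysosomes and melanosomes, was at 9.94, 10.82, 9.13 and 10.88 in CX3CR1hi, 6.35 and 7.08 in CX3CR1int, and 5.66 and 5.75 in splenic arrays. Its difference was 4.49 for CX3CR1hi over splenic (SE 0.49, adjusted p = 0.000262) and -3.48 for CX3CR1int against CX3CR1hi (SE 0.49, adjusted p = 0.00261). The endolysosomal two-pore channel gene Tpcn2 was 1.45 higher in CX3CR1hi than in splenic cells (SE 0.12, adjusted p = 7.21e-05). Of the other proton pump subunits, 3 of 13 (23.1%) were higher, a share close to the 22.2% of all genes, and 2 were lower in CX3CR1hi than in splenic cells, among them Atp6v0a1 at 1.13 and Atp6v1b2 at -0.99, and 1 of 13 was lower in CX3CR1int than in CX3CR1hi. Sorting receptors and phosphotransferase genes, which deliver hydrolases, had 3 of 11 higher and 3 lower in CX3CR1hi than in splenic cells. Igf2r, the large mannose 6-phosphate receptor, led them at 2.07 (SE 0.29, adjusted p = 0.000816). Both splenic arrays were below the array median for Igf2r (5.21 to 5.37) and for Gpnmb.

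Among the relatives of Tfeb, Mitf was at 9.18, 9.72, 9.22 and 9.44 in CX3CR1hi, 7.73 and 8.23 in CX3CR1int, and 8.17 and 8.31 in splenic arrays. CX3CR1hi lay above all others, by 1.15 over splenic (SE 0.20, adjusted p = 0.00228), and CX3CR1int differed from it by -1.41 (SE 0.20, adjusted p = 0.00272). Tfe3 was at 9.41 in Ly6Clo and 9.73 to 10.12 elsewhere, and was not called. Tfec, expressed in the myeloid lineage, was at 6.63 in Ly6Clo and 9.51 to 10.36 in the other 7 arrays, and was not called in the population fits, which average Ly6Clo with Ly6Chi. In the wider list of TFE family and lysosomal signalling genes, 3 of 15 were higher and 1 lower in CX3CR1hi than in splenic cells, and 2 were lower in CX3CR1int than in CX3CR1hi.

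On a list of protease inhibitors, 3 of 6 tested were higher in CX3CR1hi than in splenic cells, against 22.2% of all genes: Spint1 (5.19, SE 0.32, adjusted p = 2.22e-05), Serpinb6a (3.88, SE 0.29, adjusted p = 4.36e-05) and Serpinb1a (1.87, SE 0.34, adjusted p = 0.00286). Spint1 encodes an inhibitor of trypsin-like serine proteases, not of cysteine cathepsins; it is also made by epithelia and followed the order of the epithelial markers between colon and spleen. Cystatin C (Cst3), the main secreted inhibitor of cysteine cathepsins, was at 12.13 or above in all 8 arrays and was not called. Cystatin F (Cst7) was at 5.09, 7.24, 5.17 and 5.56 in CX3CR1hi, 7.53 and 6.79 in CX3CR1int, and 4.92 and 5.08 in splenic arrays, with the reconstituted array apart from the other CX3CR1hi arrays, and was not called. None of 5 granule serine protease genes passed the brightness filter.

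Colitis was compared with steady state within 1 sorted population at a time, each time 1 array against 1 array and with 2-fold as the mark. In CX3CR1hi F4/80hi cells, 1 of 37 members was 2-fold apart, against 1.47% of the 10269 genes compared: Atp6v0d2, at 6.98 in colitis and 5.83 at steady state (difference 1.15). The next largest was Ctsd at 11.94 against 11.31 (0.62). Differences were mostly positive, 30 of 37 (81.1%) against 67.9% of all genes, with a median of 0.15 against 0.10. In the same pair 7 of 9 acinar, 4 of 8 stromal and 3 of 5 red pulp macrophage markers were 2-fold higher in colitis, with medians of 2.61, 1.02 and 1.03, and their part in it was not tested. All 7 membrane genes and all 6 glycosidases were on the positive side, within 0.38, but with arrays centred on their medians it was 6 and 5 of them, 26 of 37 members in all, with a median of 0.05. When colitis was compared with the resident array instead, Atp6v0d2 no longer reached 2-fold and Ctse did, lower in colitis. Labelled sex and condition differ together in that pair and cannot be told apart.

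In splenic Ly6Chi monocytes, 1 of 35 members was 2-fold apart between colitis and steady state, against 0.708% of the 9469 genes compared. It was Ctse, at 11.28 in colitis and 9.08 at steady state (difference 2.20), while the median of the members was 0.01 and all others lay within 0.50. Labelled sex and condition differ together between these arrays and cannot be told apart. The epithelial marker mean was 6.00 in the colitis and 4.93 in the steady splenic array, and its part in the Ctse difference was not tested.

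The origin of the macrophages was compared between reconstituted and resident arrays. None of 37 members was 2-fold apart, against 1.76% of 10374 genes. The differences ran from -0.28 to 0.25 with a median of -0.05, and their SD over the members was 0.143 against 0.361 over all genes compared. Steady F4/80hi against resident likewise had 0 of 37 members 2-fold apart, against 3.64% of 10384 genes, the lowest being Ctse at -0.97. The steady F4/80hi and resident arrays also differ in labelled sex, which cannot be told apart from the sorted group. The acinar gene mean was 8.30 in the resident array and 5.55 and 5.32 in the reconstituted and steady F4/80hi arrays, with 9 of 9 and 8 of 9 acinar genes 2-fold lower than in the resident array; their part in the members' values was not tested.

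Within the CX3CR1int compartment of the colitic colon, Ly6Clo was set against Ly6Chi, to see whether the lysosomal genes differ between these subsets. In Ly6Clo 3 of 35 members were 2-fold lower, against 5.51% of the 10132 genes compared, and 0 were 2-fold higher, against 6.46%. They were Ctse (8.32 against 10.49), Ctsl (8.35 against 9.83) and Ctsd (9.57 against 10.85). The difference was negative for 29 of 35 members with a median of -0.31, against 0.01 over all genes, and cathepsins had a median of -0.67. Neu1 (-0.94), Npc2 (-0.85), Lamp1 (-0.79), Cd68 (-0.78), Lamp2 (-0.77) and Ctss (-0.76) came next. Dendritic cell markers moved in the other direction, with Flt3 at 11.16 in Ly6Clo and 9.03 in Ly6Chi. Ccr7 was at 11.66 and 9.21, and Itgae at 9.47 and 5.64. Monocyte markers fell from a mean of 11.19 to 8.16. Also 2-fold lower in Ly6Clo were 6 of 10 macrophage and 9 of 9 acinar markers (medians -1.11 and -2.99). So were 6 of 7 plasma and B cell and 4 of 8 stromal markers (medians -1.70 and -0.93), and 2 of 16 epithelial markers. In these 5 lists 0 markers were 2-fold higher. Their part in the lysosomal differences was not tested.

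Against the colitis F4/80hi array of the same tissue and condition, Ly6Clo was 2-fold lower for 15 of 37 members, against 11.8% of the 10396 genes compared. It was 2-fold higher for 0, against 7.27%. Ctsf and Atp6v0d2, among the 15, were below the array median in Ly6Clo and were compared only through the F4/80hi array. The median difference was -0.85, against -0.01 over all genes, and no member was positive (1 of 37 with arrays centred or quantile-normalised again). Cd63 (-2.86), Ctsl (-2.42) and Ctsd (-2.37) had the largest differences among members at or above the median in both arrays. In the same pair 10 of 10 macrophage, 9 of 16 epithelial, 9 of 9 acinar, 7 of 8 stromal and 5 of 5 red pulp macrophage markers were 2-fold lower (medians -3.23, -1.18, -2.44, -1.18 and -3.15), and 6 of 8 dendritic cell markers were 2-fold higher (median 2.53). Their part in the lysosomal differences was not tested.

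Colonic Ly6Chi cells were also compared with splenic Ly6Chi monocytes of the same condition and labelled sex, at day 4 of colitis. In the colon 2 of 35 members were 2-fold higher, against 9.79% of the 10083 genes compared: Cd63 at 9.49 against 6.13, and Ctsl at 9.83 against 8.62. Lipa alone was 2-fold lower, 1 of 35 against 3.95%, at 9.97 against 11.36. Legumain was higher by 0.79, and the median over the members was -0.19, against -0.13 over all genes. All 5 lipid genes were on the lower side, with a median of -0.60. In the same pair all 16 epithelial, all 9 acinar and 7 of 8 stromal markers were 2-fold higher in the colon (medians 4.14, 2.24 and 1.52), and their part in the Cd63 and Ctsl differences was not tested.

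**Figure D5:**
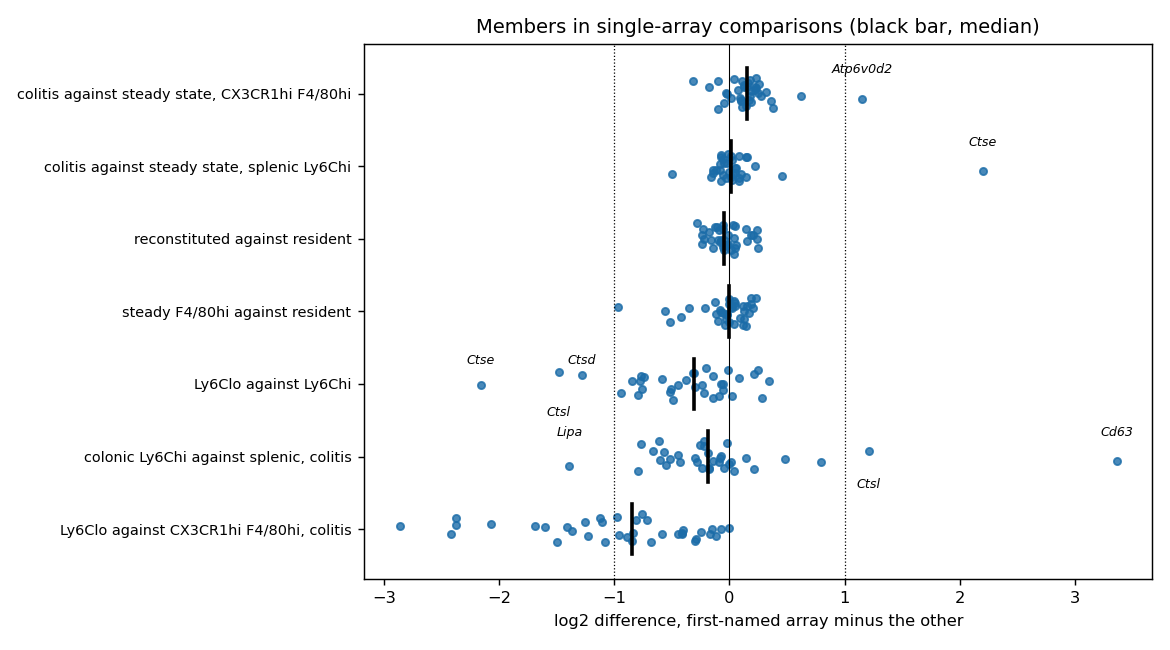
Log2 difference (x axis) of each compared member between 2 single arrays, for 7 comparisons (rows); the black bar is the median over the members and dotted lines mark 2-fold. The cloud lies near 0 for reconstituted against resident (-0.28 to 0.25) and wholly below 0 for Ly6Clo against colitis F4/80hi, with a median of -0.85.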

How the data were processed

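Affymetrix arrays of 8 sorted mouse samples were analysed from the authors' deposited table of log2 values; per the submitters' processing notes RMA and Partek were used, with versions not given in the sources used here. The table holds 35399 probe sets, of which 21789 carry 1 gene symbol, 1621 several, and 11989 are unnamed here; per gene the single-symbol probe set with the highest mean was kept. Values ran from 3.37 to 14.31, and array medians from 5.77 to 5.87.

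Populations were compared with limma 3.58.1 in R 4.3.3 (lmFit, eBayes, residual df 5, Benjamini-Hochberg over 10673 genes at 0.05), without covariates; the scripts were tested on simulated data. Genes had to reach the array median in 2 arrays. Single-array comparisons (Python 3.11.15) used genes whose brighter array reached its median, a 2-fold mark and no test. Comparisons share arrays. The number of arrays limits precision. Members, lists and the rule for named genes (the 12 largest differences per comparison, the first member per role, and up to 4 genes per further list plus Tfe3, Mitf, Tfec, Cst3, Cst7 and Acp5; another gene of the rule is not reported here) were chosen with earlier results of these data known. Alternatives covered filters, scaling, probe sets, covariates, prior, threshold and arrays.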

Additional observations from a re-analysis of the deposited data

Results flagged for a closer look

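Among the members, 3 results met a screening rule for a closer look. Over the 4 CX3CR1hi arrays, the gap between the colitis F4/80hi array and the next highest, divided by the whole range, was 0.92 for Ctsk and 0.834 for Hexa, above Dixon's 95% critical value for 4 samples; 38 members were examined, and chance alone is expected to pick out about 1 in 20. Ctsk was below the array median in all 8 arrays (4.92 in that array against 4.60 to 4.62 in the other 3), and Hexa was at 11.76 there against 11.48 to 11.53. The colitis minus steady-state difference of Ctse was 2.20 in splenic monocytes and -0.32 in CX3CR1hi F4/80hi cells, 2.52 apart, and this difference between single arrays was not tested.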

How the results depend on the processing

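No called difference changed sign under any alternative run. Of the values under alternatives, 1626 named-gene values stayed on the same side of the threshold in the same direction, 117 lost and 64 gained the call, and 113 of 136 counts stayed within 1.5 times.

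For CX3CR1hi over splenic, the 11 higher members became 4 with a 2-fold minimum, and 7 to 11 with 1 array left out (7 without either splenic array). The 1 lower member became 3 with the arrays of the contrast alone, a trended and robust prior, or without the 3 arrays high in acinar genes (an alternative chosen after seeing the data), and 0 with the 2-fold minimum. For CX3CR1int against CX3CR1hi, the 20 lower members became 12 with the condition block and 2 with the 2-fold minimum. The shares of all genes in those fits were 5.31% and 1.14%, and Ctsf is in both counts of members. For CX3CR1int against splenic, the 1 higher member became 2 with the 75th percentile filter, repeated quantile normalization or the trended prior, and 1 to 3 with 1 array left out (3 without Ly6Clo). The 8 lower members became 5 with the condition block, 2 with the arrays of the contrast alone, 0 with the 2-fold minimum, 18 without the acinar-high arrays, and 2 to 20 with 1 array left out (20 without Ly6Chi, 5 without Ly6Clo, 2 without either splenic array). Of all genes, 8.29% were lower with the condition block, 3.33% with the arrays of the contrast alone and 0.281% with the 2-fold minimum. The fits without Ly6Chi, Ly6Clo, either splenic array or the acinar-high arrays leave 1 array in a population compared here. Lower calls over all genes moved in the same direction as those of the members in each, so these counts are not support. The single 2-fold member between colitis and steady F4/80hi became 0 with the 75th percentile filter. Reconstituted macrophages had 1 (Ctse) against the steady F4/80hi array, against 2.09% of all genes, in place of 0 against the resident one. The reconstituted and steady F4/80hi arrays also differ in labelled sex. The cause of these moves was not tested, apart from the 2-fold minimum, which asks more of each gene.

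Of the 20 lower members, 12 kept the call with the condition block and 16 with a sex block, against 5.31% and 10.8% of all genes. Both counts include Ctsf and Atp6v0d2, whose calls are not support. The sex block follows the labels, and the steady splenic array goes against its label. Not every one of the 20 kept the call when an array was left out. Leaving out an array can leave a population with 1 array, whose spread is then assumed from the others. No paired analysis was possible because each group has 1 array and the labels give no replicate numbers. Members near the array median, Ctsf, Atp6v0d2 and Ctsk, have compressed differences.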
